A study of Mus musculus with 12 samples.

Results

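The insulin-like growth factor (IGF) axis was described through 10 genes, found by symbol among the 52636 genes of the deposited count tables. They were the ligand genes Igf1 and Igf2, the receptor genes Igf1r, Igf2r and Insr, the adaptor gene Irs4, and the binding protein genes Igfbp2, Igfbp3, Igfbp4 and Igfbp5. All 10 genes were present in the tables. In day 6 embryoid bodies, 9 of the 10 genes reached the count filter, a level equal to 10 counts in a library of median size, in every wild-type and every knockdown library. Of these, 6 were higher and 2 were lower after the knockdown. Of all genes that reached the filter in both groups, 58.9% differed. The tenth gene, Igf1, was almost absent from wild-type libraries and had low counts in each knockdown library. In embryonic stem cells, 0 of the 7 genes that could be tested passed the test, against 0.603% of all genes tested.

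IGF1 and IGF2 are secreted growth factors that signal through the tyrosine kinase IGF1R, and IGF2 also acts through the insulin receptor. Activated receptors phosphorylate adaptors of the insulin receptor substrate family, which feed the PI3K and AKT pathway, while IGF2R binds IGF2 without such a kinase and delivers it to lysosomes. IGF binding proteins carry the ligands outside the cell and either withhold them from or present them to receptors, and IGF2 is the main growth factor of the axis in the early mouse embryo.

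The series used the mouse embryonic stem cell (ESC) line E14 and asked what changes when circKat6b-e2, a circular RNA named after Kat6b, is knocked down (KD). The 4 groups were wild-type (WT) ESCs, shcircKat6b-e2 ESCs, WT embryoid bodies (EBs) at day 6 and shcircKat6b-e2 EBs at day 6, each with 3 libraries that the series calls biological replicates. EBs are aggregates in which ESCs leave pluripotency and form several lineages. ESCs of both genotypes were cultured on gelatin with LIF, PD0325901 (a MEK inhibitor) and CHIR99021 (a GSK3 inhibitor), per the labels' protocols. A control shRNA in WT cells is not mentioned in the labels, nor is a clonal origin of the KD cells, so the knockdown and other differences between the 2 cell populations cannot be told apart.

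Libraries held 25.4 to 37.8 M counts in all. Poly-T selected mRNA was sequenced, so the circular RNA itself was not measured. Its host gene Kat6b was not lower in KD libraries: in counts per 1 M counts of the library (CPM), it averaged 78.6 in WT and 103.6 in KD ESCs, and it ranged from 29.0 to 30.8 in WT and from 60.4 to 62.2 in KD EBs (edgeR adjusted p = 0.0893 and 2.57e-15). The ESC difference of Kat6b was 0.41 ± 0.10 (SE) on the log2 scale. Without WT ESC replicate 2 it was 0.29 ± 0.07 and passed the test (edgeR adjusted p = 0.00208), and it was called as higher in KD in 5 of 11 alternatives. WT ESC replicate 2 stood apart, with a chi-square per gene of 60.9 and 61.7 against its 2 fellow replicates, compared with 4.96 to 9.57 for the other replicate pairs. Fold changes of the 10 genes that rest on this library are therefore given with and without it. The summed level of 10 pluripotency markers was 3742 to 4785 CPM in ESC libraries and 358 to 601 CPM in EB libraries, and none of them was at 0.

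The levels of the 10 genes are given in CPM on 1 normalised scale for all 12 libraries. Changes are log2 fold changes with their standard error (SE) from edgeR's quasi-likelihood test, and a gene was called when its p-value, adjusted over all genes tested by the Benjamini-Hochberg method, was below 0.05. Libraries are bulk RNA, so fewer cells of a type and less RNA per cell cannot be told apart.

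Igf2 was almost silent in ESCs and abundant in EBs, and it was higher again in KD than in WT EBs. The gene lies on chromosome 7 (GRCm38, chr7:142650766-142666816, minus strand) and is imprinted, with expression from the paternal copy in most embryonic tissues. RefSeq lists 4 transcription starts for it, and the gene-level counts add up transcripts from all of them. The 250 bases before the most upstream start and before the most downstream start are shown, because these are the starts whose windows lie outside annotated exons and because the counts cannot say which start was used. Both are written 5′ to 3′ on the strand of the gene (RefSeq, GRCm38.p6). Capitals mark matches on either strand to 3 short promoter motifs. The TATA box was searched as TATAAA and was found in 12.4% of 32851 such windows of all genes. The pentamer CCAAT was found in 33.8% of the windows, and the GC box, searched as GGGCGG, was found in 32.7%. No 2 matches overlapped in the windows shown.
Igf2 upstream start, chr7:142666817-142667066, minus strand: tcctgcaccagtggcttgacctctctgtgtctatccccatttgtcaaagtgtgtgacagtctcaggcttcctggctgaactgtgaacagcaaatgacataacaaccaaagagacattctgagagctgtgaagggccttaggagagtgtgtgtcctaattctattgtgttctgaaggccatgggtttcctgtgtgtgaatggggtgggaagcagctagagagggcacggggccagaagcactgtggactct
Igf2 downstream start, chr7:142657497-142657746, minus strand: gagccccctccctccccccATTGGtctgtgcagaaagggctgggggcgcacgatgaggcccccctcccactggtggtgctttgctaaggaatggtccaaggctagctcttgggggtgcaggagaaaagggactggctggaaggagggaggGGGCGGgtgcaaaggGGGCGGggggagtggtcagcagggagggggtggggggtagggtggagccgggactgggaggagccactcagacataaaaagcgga
The upstream window held no match and 1 CpG. The downstream window held 1 CCAAT box, 2 GC boxes and 6 CpG, against a median of 6 CpG over all windows. A match is a description of the letters and not evidence of a bound site.

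In WT ESCs, Igf2 stood at 0.621, 1.11 and 1.63 CPM in replicates 1, 2 and 3, and in KD ESCs at 0.178, 0.319 and 0.626 CPM. These values rest on 20, 26 and 41 counts in WT and 4, 8 and 17 counts in KD, and the ranges of the groups overlapped slightly. The log2 fold change of KD against WT was -1.54 ± 0.66 (SE), which did not pass the test (edgeR adjusted p = 0.209). Without WT ESC replicate 2 it was -1.55 ± 0.77 (edgeR adjusted p = 0.236).

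In EBs, Igf2 reached 3416, 3479.8 and 3398 CPM in WT and 5157, 5318 and 5458 CPM in KD. Every KD library lay above every WT library. The increase was 0.57 ± 0.02 on the log2 scale, a 1.49-fold rise (edgeR adjusted p = 1.08e-19). Among all genes, Igf2 ranked 5 by CPM in each WT EB library and 3 in each KD EB library, and per kilobase of exon it ranked 39 to 42 in WT and 12 to 13 in KD. It took 0.402% to 0.415% of all counts in WT and 0.597% to 0.626% in KD.

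The step from ESC to EB was far larger than the knockdown difference. Summed over 3 libraries and scaled for depth, Igf2 counts were 3181 times higher in WT EBs than in WT ESCs, with an exact 95% interval of 2579 to 3972 that covers counting error only. In KD cells the ratio was 13690, with an interval of 9532 to 20441. The fitted log2 difference was 11.62 ± 0.20 in WT (edgeR adjusted p = 4.30e-15) and 11.61 ± 0.19 without WT ESC replicate 2. In KD, where Igf2 reached the count filter in every EB library but not in every ESC library, it was 13.73 ± 0.23.

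Igf1, the ligand that mediates much of growth hormone action after birth, was scarcely detected outside KD EBs. The gene (chr10:87858265-87937042, plus strand) had no count in any WT ESC library. KD ESCs gave 0, 4 and 0 counts, and WT EBs gave 0, 0 and 2 counts. KD EBs gave 83, 56 and 66 counts, or 2.23, 1.61 and 1.76 CPM, and all 3 lay above every other library.

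The 205 summed counts of KD EBs against 2 in WT EBs gave a ratio of 109, with an exact 95% interval of 29.9 to 909 for counting error. The mates of a read pair appear to have been counted one by one, and with counts halved the interval was 19.1 to 4341. Igf1 entered the EB test only through the KD libraries, so that it had to differ there, and its fitted fold change of 6.47 on the log2 scale depends on the small prior count added to WT. Its call is therefore left out of the counts below. Even in KD EBs, Igf1 reached only 0.188 CPM per kilobase of exon, compared with 928 CPM per kilobase for Igf2.

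**Figure D1:**
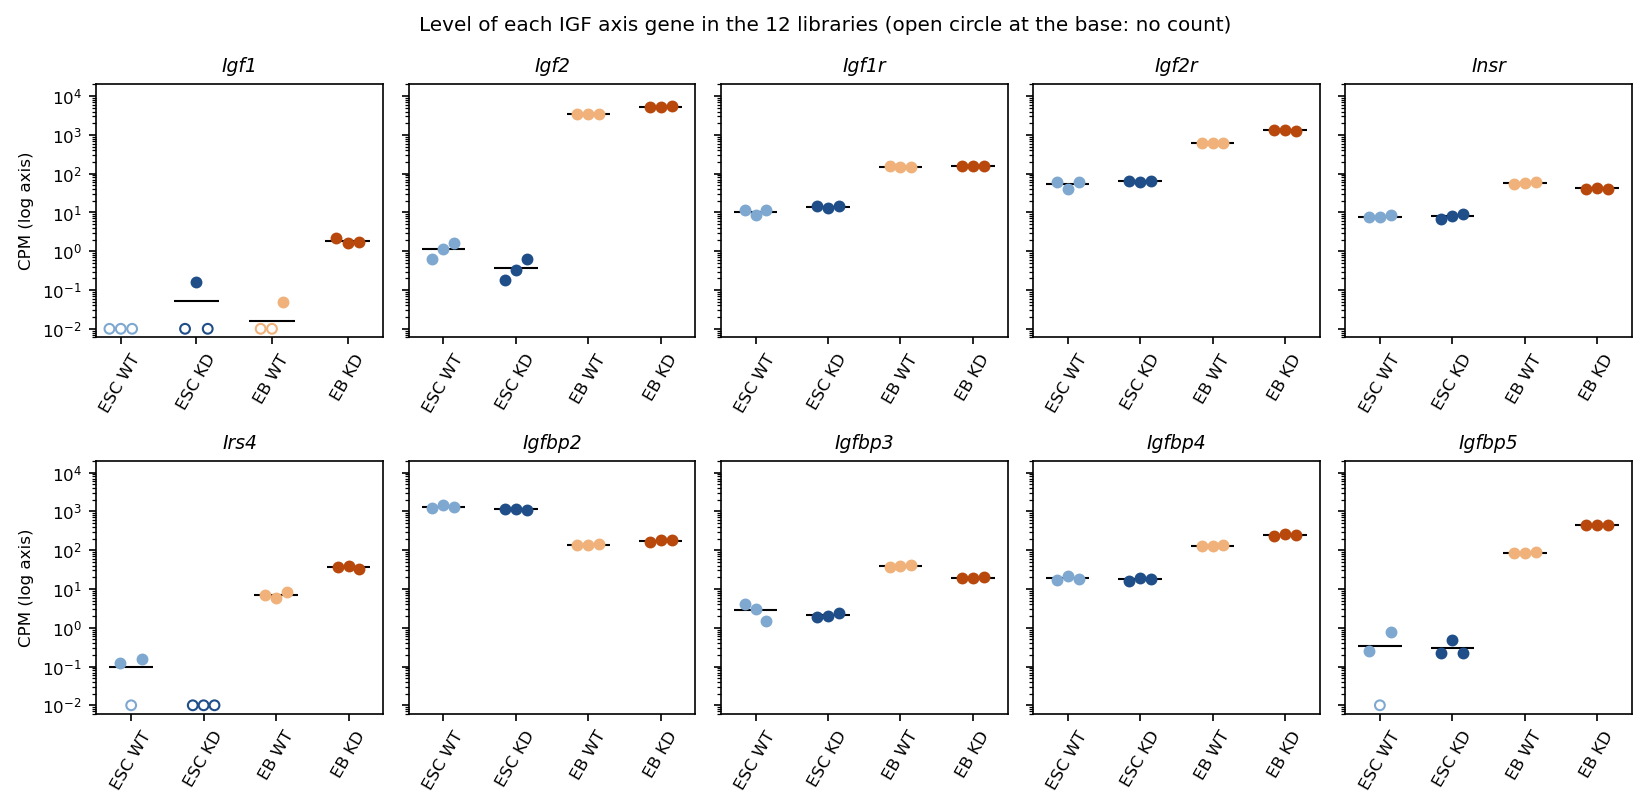
Level of each of the 10 genes in the 12 libraries, in CPM on a log axis, with 1 panel per gene and 1 column of 3 points per group. Horizontal bars are group means, and open circles at the base are libraries with no count. Igf2 rises from about 1 CPM or less in ESCs to between 3398 and 5458 CPM in EBs, Igfbp2 goes the other way, and the 3 KD EB libraries stand above the WT EB libraries for Igf1, Igf2, Igf2r, Irs4, Igfbp2, Igfbp4 and Igfbp5.

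Ordered by group mean, Igf2, Irs4, Igfbp4 and Igfbp5 ran from KD EBs through WT EBs and WT ESCs to KD ESCs, and their 2 ESC groups overlapped. Igf2r ran from KD EBs through WT EBs and KD ESCs to WT ESCs with no overlap between neighbours, and Igf1r had the same order with overlapping EB groups. Insr and Igfbp3 were highest in WT EBs, followed by KD EBs and overlapping ESC groups. Igfbp2 had an order of its own, from WT ESCs through KD ESCs and KD EBs to WT EBs, with no overlap. Igf1 stood out in KD EBs, and its other 3 groups overlapped.

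All 3 receptor genes were more abundant in EBs than in ESCs, and they differed in what the knockdown did in EBs: Igf2r rose, Insr fell and Igf1r did not pass the test. Igf1r (chr7:67952827-68233668, plus strand), which encodes the signalling receptor for both ligands, stood at 157, 151 and 145 CPM in WT EBs and 157, 159 and 156 CPM in KD EBs. The 2 groups overlapped. The log2 fold change was 0.0015 ± 0.04 (edgeR adjusted p = 0.978).

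In ESCs, Igf1r stood at 11.3, 8.71 and 11.4 CPM in WT and 14.4, 12.9 and 14.9 CPM in KD. The KD libraries all lay above the WT libraries, as was also the case, in one direction or the other, for 30.5% of all genes tested in ESCs. The log2 fold change of 0.43 ± 0.16 did not pass the test (edgeR adjusted p = 0.166), and without WT ESC replicate 2, the lowest library, it was 0.32 ± 0.16 (edgeR adjusted p = 0.254). The EB level was 3.85 ± 0.09 log2 units above ESCs in WT, 3.70 ± 0.07 without WT ESC replicate 2, and 3.49 ± 0.09 in KD (edgeR adjusted p = 6.63e-15, 2.21e-22 and 1.64e-14).

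Igf2r (chr17:12682406-12769664, minus strand) encodes the clearance receptor for IGF2, which also carries mannose 6-phosphate tagged enzymes. It stood at 637, 614 and 624 CPM in WT EBs and at 1316, 1309.9 and 1298 CPM in KD EBs. Every KD library was far above every WT library, and replicates lay close together. Igf2r rose by 1.01 ± 0.03 on the log2 scale, a 2.01-fold change (edgeR adjusted p = 5.04e-24).

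In ESCs, Igf2r measured 60.1, 39.5 and 59.3 CPM in WT and 66.8, 60.9 and 64.2 CPM in KD. The low WT value came from replicate 2, and the groups did not overlap. The log2 fold change of 0.28 ± 0.14 (edgeR adjusted p = 0.285) became 0.10 ± 0.08 without that library (edgeR adjusted p = 0.483). Igf2r is imprinted in mouse with expression from the maternal copy, and the antisense RNA Airn, which starts inside it, is made from the paternal copy. The counts do not tell parental copies apart, so imprinted expression was not tested in either stage. Airn had 10, 0 and 0 counts in WT ESCs and 2, 0 and 0 counts in KD ESCs.

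Insr (chr8:3122061-3279617, minus strand), the insulin receptor gene, stood at 53.5, 56.9 and 61.6 CPM in WT EBs and 41.4, 43.3 and 41.2 CPM in KD EBs. All KD libraries were below all WT libraries, and the gene fell by 0.51 on the log2 scale, with an SE of 0.06 (edgeR adjusted p = 6.83e-09). In ESCs the groups overlapped, with 7.46, 7.47 and 8.41 CPM in WT and 6.70, 8.18 and 9.10 CPM in KD. The ESC log2 fold change was 0.05 ± 0.19 (edgeR adjusted p = 0.908), and 0.02 ± 0.21 without WT ESC replicate 2 (edgeR adjusted p = 0.976).

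Per kilobase of exon, which allows genes to be compared, Igf2r was the most abundant receptor mRNA in every group. Its level was 7.37 ± 0.26 (SD, n = 3) times that of Igf1r in WT EBs and 14.8 ± 0.11 (SD, n = 3) times in KD EBs. The ratio of Igf1r to Insr was 2.17 ± 0.24 in WT EBs and 3.07 ± 0.06 in KD EBs (SD, n = 3 each), with no overlap between libraries. Neither ratio was tested, since 3 libraries against 3 cannot reach an exact two-sided permutation p below 0.10.

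Irs4 encodes an insulin receptor substrate, an adaptor that links activated receptors to PI3K. The gene (chrX:141710998-141725263, minus strand) had 4, 0 and 4 counts in WT ESCs and no count in any KD ESC library, too few for a test. In EBs it stood at 7.05, 5.82 and 8.21 CPM in WT and 36.4, 39.8 and 32.4 CPM in KD. The lowest KD library was well above the highest WT library, and Irs4 rose by 2.30 ± 0.11 on the log2 scale, a 4.93-fold change (edgeR adjusted p = 5.09e-16).

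Compared with ESCs, Irs4 counts were 71.3 times higher in WT EBs, with an exact 95% interval of 36.0 to 166. The fitted log2 difference in WT, which rests on the few ESC counts, was 6.10 ± 0.36. Without WT ESC replicate 2, which had no Irs4 count, it was 5.58 ± 0.32. In KD, 3960 summed counts in EBs against 0 in ESCs put Irs4 at least 450-fold higher with counts halved, and at least 900-fold with counts as deposited, using 3 counts over the group as the limit that a count of 0 allows. An antisense gene on the other strand shares 6.09% of the exonic bases of Irs4. Strand was not used in counting, so reads in those bases cannot be assigned to either gene.

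Among the binding protein genes, Igfbp2 dominated in ESCs, and EBs held a mixture of Igfbp2, Igfbp4, Igfbp5 and Igfbp3 whose make-up differed between WT and KD. Igfbp2 and Igfbp5 are neighbours on chromosome 1, with their 3′ ends facing each other 5457 bases apart, yet they moved in opposite directions between ESCs and EBs. The 250 bases before the RefSeq starts of the 4 genes are shown side by side because the mRNA levels of these genes differ in direction, with the same motifs in capitals (RefSeq, GRCm38.p6, 5′ to 3′ on the strand of the gene).
Igfbp2, chr1:72824230-72824479, plus strand: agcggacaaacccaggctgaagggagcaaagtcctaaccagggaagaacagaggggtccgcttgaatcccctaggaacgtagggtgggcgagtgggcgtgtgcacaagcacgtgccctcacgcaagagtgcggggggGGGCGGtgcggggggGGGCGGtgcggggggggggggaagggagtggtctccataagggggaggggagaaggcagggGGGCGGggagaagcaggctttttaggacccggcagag
Igfbp5, chr1:72874866-72875115, minus strand: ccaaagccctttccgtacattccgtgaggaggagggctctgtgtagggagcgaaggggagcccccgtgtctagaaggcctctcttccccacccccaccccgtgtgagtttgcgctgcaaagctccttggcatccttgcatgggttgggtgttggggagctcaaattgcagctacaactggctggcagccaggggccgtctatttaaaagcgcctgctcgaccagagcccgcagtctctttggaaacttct
Igfbp4, chr11:99040994-99041243, plus strand: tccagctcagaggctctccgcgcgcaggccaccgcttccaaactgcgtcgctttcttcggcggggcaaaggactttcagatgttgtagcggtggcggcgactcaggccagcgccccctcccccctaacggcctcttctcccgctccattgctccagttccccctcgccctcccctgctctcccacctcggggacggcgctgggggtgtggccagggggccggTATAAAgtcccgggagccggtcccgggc
Igfbp3, chr11:7213924-7214173, minus strand: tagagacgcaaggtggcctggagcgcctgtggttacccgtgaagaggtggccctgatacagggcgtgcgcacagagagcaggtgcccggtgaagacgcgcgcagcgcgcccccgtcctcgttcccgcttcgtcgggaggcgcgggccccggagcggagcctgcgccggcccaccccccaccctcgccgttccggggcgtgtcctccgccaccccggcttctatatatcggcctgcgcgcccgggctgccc
The Igfbp2 window held 3 GC boxes and 14 CpG, and it is the first of 2 starts listed for the gene. The Igfbp4 window held 1 TATA box and 22 CpG. The windows of Igfbp3, with 32 CpG, and Igfbp5, with 10 CpG, held no match to the 3 motifs, which says only that these letters are not in these windows.

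Igfbp2 (chr1:72824503-72852474, plus strand) encodes a binding protein that is made widely in the early embryo. In WT ESCs it stood at 1239, 1449 and 1327 CPM, and in KD ESCs at 1168, 1184 and 1121 CPM, with no overlap. It ranked between 119 and 136 among all genes by CPM in the ESC libraries. The log2 fold change of KD against WT was -0.20 ± 0.09 and was not called (edgeR adjusted p = 0.213), but without WT ESC replicate 2, the highest library, it was -0.14 ± 0.04 and passed the test (edgeR adjusted p = 0.0162).

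In EBs, Igfbp2 stood at 140.4, 134 and 140.6 CPM in WT and at 166, 181 and 184 CPM in KD. All KD libraries were higher, and the gene rose by 0.30 ± 0.04 on the log2 scale (edgeR adjusted p = 1.16e-07). Igfbp2 was the 1 member that was lower in EBs than in ESCs, by a log2 difference of -3.27 ± 0.07 in WT, -3.24 ± 0.05 without WT ESC replicate 2, and -2.71 ± 0.07 in KD (edgeR adjusted p = 1.38e-15, 3.64e-25 and 7.78e-15).

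Igfbp5 (chr1:72857932-72874884, minus strand), which encodes a binding protein that attaches to extracellular matrix, was near the detection limit in ESCs. It measured 0.249, 0 and 0.757 CPM in WT ESCs and 0.222, 0.479 and 0.221 CPM in KD ESCs, and these levels were too low to enter the test. In EBs it stood at 83.9, 87.1 and 87.8 CPM in WT and at 451, 443 and 456 CPM in KD. The increase of 2.32 ± 0.03 on the log2 scale, a 5.00-fold rise, had the smallest adjusted p among the 10 genes (edgeR adjusted p = 1.71e-30).

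Igfbp4 (chr11:99041244-99054392, plus strand), whose product inhibits IGF action until it is cleaved by the protease PAPPA, rose in KD EBs as well. It stood at 128, 128 and 140.3 CPM in WT EBs and at 236, 255 and 245 CPM in KD EBs, with no overlap and a log2 fold change of 0.83 ± 0.04 (edgeR adjusted p = 7.26e-18). In ESCs it lay between 17.6 and 22.2 CPM in WT and between 16.5 and 19.2 CPM in KD. These groups overlapped, and the log2 fold change was -0.10 ± 0.14 (edgeR adjusted p = 0.701). Without WT ESC replicate 2 it was 0.0075 ± 0.14 (edgeR adjusted p = 0.987).

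Igfbp3 (chr11:7206086-7213923, minus strand) encodes the main carrier of IGFs in adult serum, and among the 4 binding protein genes described here it was the 1 that fell. It stood at 37.0, 38.5 and 40.6 CPM in WT EBs and at 18.7, 19.4 and 20.2 CPM in KD EBs. The groups were far apart, and the gene fell by 1.05 on the log2 scale, with an SE of 0.07 (edgeR adjusted p = 1.49e-13). In ESCs it measured 4.01, 3.03 and 1.51 CPM in WT and 1.86, 2.00 and 2.36 CPM in KD. There the KD range lay inside the WT range, and the log2 fold change was -0.45 ± 0.37 (edgeR adjusted p = 0.510), or -0.42 ± 0.39 without WT ESC replicate 2 (edgeR adjusted p = 0.610).

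The make-up of the binding protein mRNAs was computed within each library from counts per kilobase of exon, so it does not depend on scaling between libraries. Igfbp2 made up 99.3% ± 0.07 of the 4 genes' summed level in WT ESCs and 99.3% ± 0.06 in KD ESCs (SD, n = 3 each). In EBs its share was 58.1%, 56.5% and 56.2% in WT and 40.0%, 41.6% and 42.0% in KD. The Igfbp5 share was 10.9% ± 0.32 in WT EBs and 32.3% ± 1.12 in KD EBs, and that of Igfbp3 was 9.40% ± 0.31 and 2.67% ± 0.04 (SD, n = 3 each). The libraries of the 2 EB groups did not overlap in these 3 shares. Igfbp4 took 22.7% ± 0.66 in WT and 23.9% ± 0.57 in KD (SD, n = 3 each), with overlapping libraries. Its direction depended on the division by length: from raw counts its share was 33.4% ± 0.76 in WT and 27.5% ± 0.74 in KD (SD, n = 3 each), with no overlap.

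The summed level of the 4 binding protein mRNAs was 132 ± 3.62 CPM per kilobase in WT EBs and 232 ± 7.29 in KD EBs (SD, n = 3 each). That of both ligand mRNAs, nearly all of it Igf2, was 599.5 ± 7.53 and 928 ± 26.2 CPM per kilobase (SD, n = 3 each). Both sums were thus higher in KD EBs. The ratio of ligand to binding protein mRNA was 4.57, 4.73 and 4.38 in WT and 4.02, 3.94 and 4.02 in KD, so that every KD library lay below every WT library. In ESCs both sums were on average lower in KD. Binding protein sums were 729.7 ± 57.6 in WT and 631 ± 17.9 in KD (699 in WT without replicate 2). Ligand sums were 0.196 ± 0.09 and 0.0708 ± 0.04 CPM per kilobase (SD, n = 3 each). The ESC ratio of ligand to binding protein mRNA rests on few ligand counts. It averaged 2.67e-04 in WT (2.78e-04 without replicate 2) and 1.13e-04 in KD, with overlapping libraries.

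**Figure D2:**
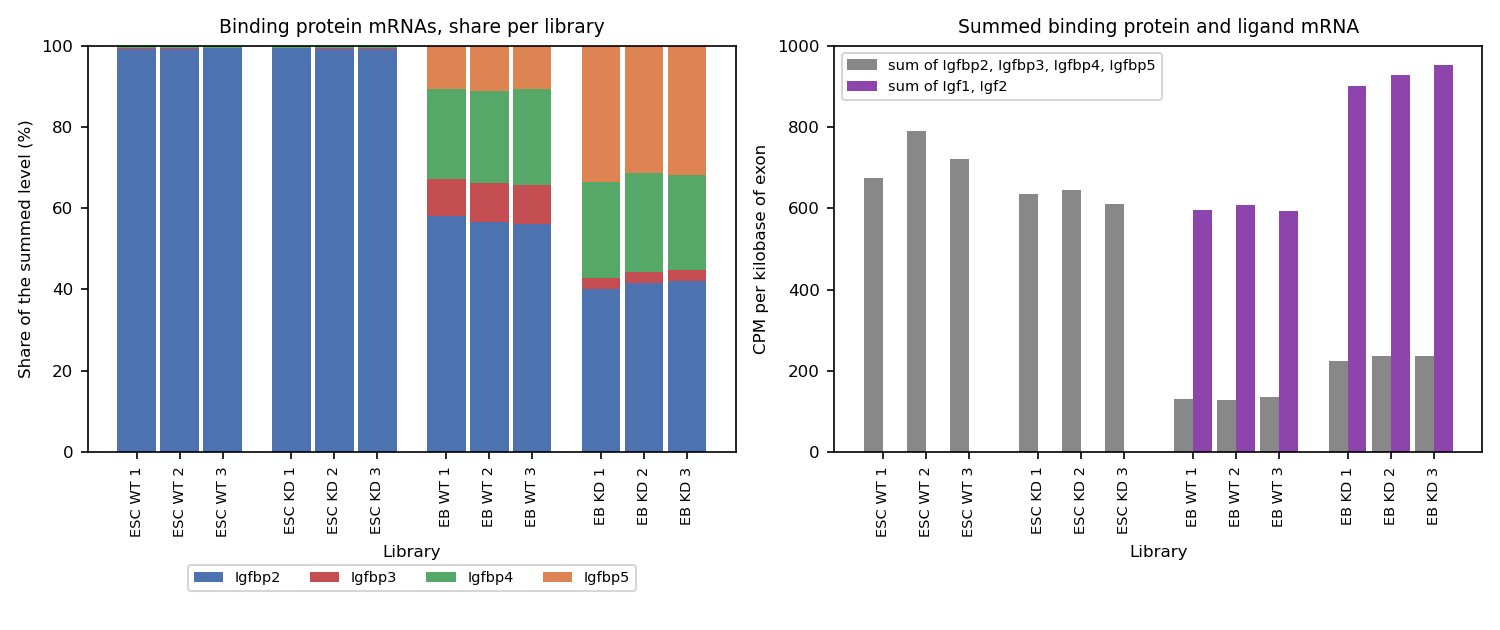
Left, share of the summed level per kilobase of exon (%) that each of the 4 binding protein genes took in each library, as stacked bars. Right, summed level of the 4 binding protein genes and of the 2 ligand genes in CPM per kilobase of exon, with 1 pair of bars per library. Igfbp2 fills the ESC bars and takes 56.2% to 58.1% in WT EBs and 40.0% to 42.0% in KD EBs, where the Igfbp5 part is the wider one, and ligand bars are visible in EBs only.

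Counted together without Igf1, 8 of 9 genes were called in EBs, of which 6 were higher (Igf2, Igf2r, Irs4, Igfbp2, Igfbp4 and Igfbp5) and 2 were lower (Insr and Igfbp3). Of the 15181 genes that reached the filter in both EB groups, 58.9% were called, 29.3% higher and 29.6% lower, and of all 17355 genes tested 55.7% were called, 28.0% higher and 27.7% lower. Being called was thus common in this comparison. The median log2 fold change was 0.57 over the 9 genes and -0.0027 over all genes that reached the filter in both groups. The CPM ranges of WT and KD EBs did not overlap for 8 of the 9 genes, all but Igf1r. The share without overlap was 61.1% over all 17355 genes tested, which include genes that did not reach the filter in both groups.

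In ESCs, 0 of 7 tested genes were called by edgeR's quasi-likelihood test, against 0.603% of all 16081 genes tested (0.168% higher and 0.435% lower). Igf2, 1 of the 7, did not reach the filter in every KD ESC library and entered the test through WT. Of the other 6, Igf1r and Igfbp2 had an unadjusted p under 0.05, as did 21.4% of all genes tested. Igf2 was below 0.05 as well. DESeq2 called 0. When both stages were fitted together on 12 libraries, Igf1r was called at 0.42 and Igfbp2 at -0.21 on the log2 scale (edgeR adjusted p = 0.0157 and 0.0442). Igf2 was called at -1.48 (edgeR adjusted p = 0.0287), a value that rests on the same low KD counts. That fit called 10.5% of its 18975 genes, and it also differed in its scaling and in the genes tested.

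**Figure D3:**
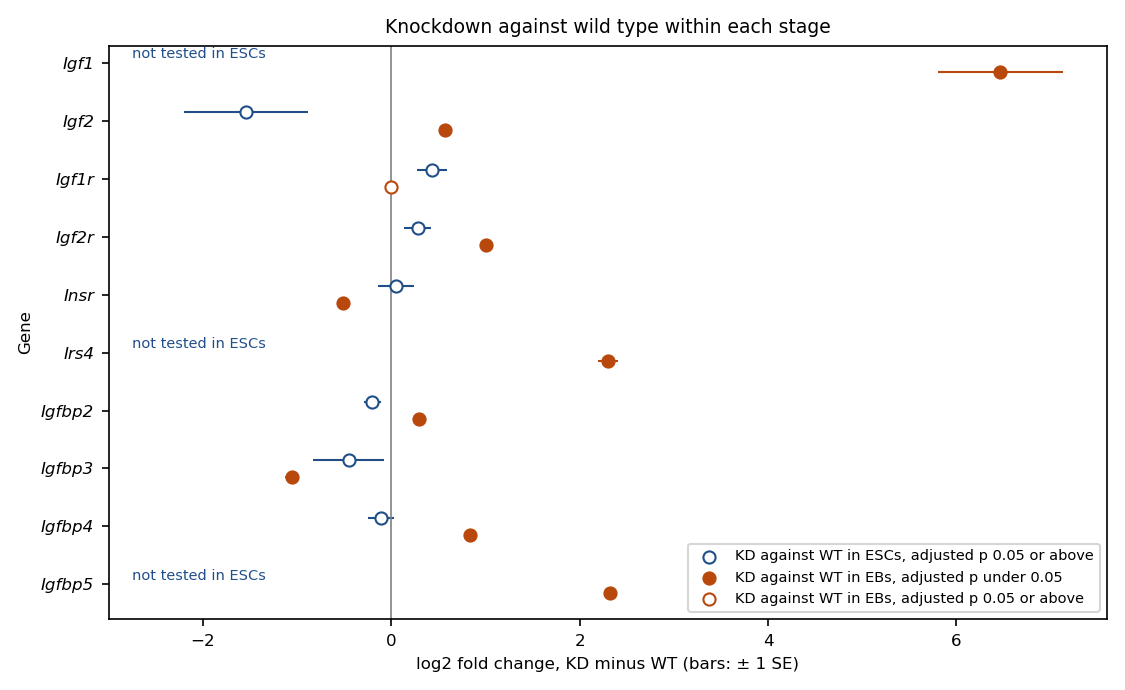
Log2 fold change of KD against WT for each of the 10 genes, in ESCs (blue) and in EBs (orange), with bars of 1 SE on each side. Filled circles passed the test at an adjusted p under 0.05, and 3 genes had too few counts in ESCs to be tested. In EBs, 7 genes lie to the right of 0 and Insr and Igfbp3 to the left, while every ESC circle is open.

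Between stages in WT, 7 of the 10 genes reached the filter in ESCs as well as in EBs. Of these, 6 were higher in EBs and Igfbp2 was lower, while 83.9% of all genes that reached the filter in both were called (42.8% higher and 41.2% lower). In KD, 6 genes reached it in both stages, of which 5 were higher in EBs and Igfbp2 was lower, against 83.7% of all such genes (42.5% higher and 41.2% lower). Over all 18975 genes tested, 79.8% were called in each comparison (42.5% higher and 37.3% lower in both). A stage difference as such was thus the rule. The median log2 difference was 3.56 over the 7 genes in WT and 3.35 over the 6 in KD, against 0.03 and 0.02 over all such genes. Igf1, Irs4 and Igfbp5, and in KD also Igf2, entered these tests through EBs only and are not counted. Scaling by library size alone moved the median of all genes up by 0.53 in WT and 0.37 in KD and turned no direction among the 10 genes. It also raised the higher share of all calls from 53.3% to 65.2% in WT.

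For the genes not yet given, the stage differences in WT and KD were as follows, on the log2 scale, and the largest edgeR adjusted p was 1.96e-09. Igf2r was 3.56 ± 0.12 and 4.35 ± 0.13 higher in EBs. Insr was 2.88 ± 0.11 and 2.39 ± 0.11 higher, and Igfbp3 was 3.74 ± 0.22 and 3.22 ± 0.23 higher. Igfbp4 was 2.79 ± 0.09 and 3.79 ± 0.09 higher, and Igfbp5, from its very low ESC level, was 7.99 ± 0.28 and 10.50 ± 0.28 higher (errors are SE). Without WT ESC replicate 2, the WT differences were 3.36 for Igf2r, 2.83 for Insr, 3.73 for Igfbp3, 2.87 for Igfbp4 and 7.47 for Igfbp5. In KD, summed Igf1 counts were 35.0 times higher in EBs (exact 95% interval 13.4 to 129). The stage comparisons use the same libraries as the knockdown comparisons, and each stage was deposited as its own count table, so stage and table cannot be told apart.

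Whether the knockdown difference itself changed between ESCs and EBs was tested with an interaction term in the fit of 12 libraries. Of the 6 genes that reached the filter in all 4 groups, 5 were called. The KD effect was higher in EBs for Igf2r, Igfbp2 and Igfbp4 and lower for Igf1r and Insr. Of all genes that reached the filter in all 4 groups, 29.6% were called (16.1% higher and 13.5% lower), and of all 18975 genes tested 23.0% (12.8% higher and 10.2% lower). For Igf2, which did not reach the filter in every KD ESC library and whose fitted KD difference was below 0 in ESCs and above 0 in EBs, the interaction was 2.11 ± 0.39 on the log2 scale (edgeR adjusted p = 0.00169). For Igfbp4 it was 1.00 ± 0.12 (edgeR adjusted p = 3.13e-05), for Igf2r 0.80 ± 0.16 (edgeR adjusted p = 0.00246) and for Igfbp2 0.56 ± 0.09 (edgeR adjusted p = 2.93e-04).

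Irs4 and Igfbp5 had fitted interactions of 7.07 ± 1.43 and 2.50 ± 0.70 (edgeR adjusted p = 0.00307 and 0.0229), which rest on ESC libraries with almost no counts and are not counted above. The Igfbp5 call was lost without WT ESC replicate 3 (1.28, edgeR adjusted p = 0.212), without KD ESC replicate 1 (edgeR adjusted p = 0.0572), without KD ESC replicate 3 (edgeR adjusted p = 0.0652) and with no filter on low counts (2.50, edgeR adjusted p = 0.0975), so that it held in 12 of 16 alternatives. The interactions of Igf1r, -0.36 ± 0.12, and Insr, -0.49 ± 0.15, were close to the threshold (edgeR adjusted p = 0.0466 and 0.0315). Over the alternatives their adjusted p reached 0.110 and 0.0895, and they were called in 8 and 9 of 16. Igf1 and Igfbp3 were not called, with edgeR adjusted p = 0.923 and 0.262.

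Without WT ESC replicate 2, each interaction called with all libraries also passed the test. Igf2 was at 2.06 ± 0.49, Igf2r at 0.94 ± 0.06, Igfbp2 at 0.47 ± 0.06 and Igfbp4 at 0.86 ± 0.09. Igf1r was then at -0.28 ± 0.09, Insr at -0.50 ± 0.15, Igfbp5 at 2.97 ± 0.42 and Irs4 at 7.58 ± 1.26.

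The rest of the pathway was covered by 57 further genes in 4 groups. In EBs, 49 of them reached the filter in both groups, of which 16 were higher and 17 were lower in KD, or 32.7% and 34.7%. Of all such genes, 29.3% were higher and 29.6% were lower. Rises and falls were thus about equal in number in both.

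The 12 extracellular modulators were further binding protein genes and relatives, genes whose products bind, cleave or protect binding proteins, and relatives of the ligands. Of the 12, 7 reached the filter in both EB groups. Of these, 1 rose and 4 fell in KD EBs. For this and the later groups, the shares of all such genes were 29.3% higher and 29.6% lower. Stc2, encoding a stanniocalcin that inhibits the protease PAPPA, rose by 1.62 ± 0.14 on the log2 scale, from 6.35 ± 1.48 to 20.3 ± 2.79 CPM (SD, n = 3 each, edgeR adjusted p = 2.51e-09). Pappa itself was low and fell by 1.04 (SE 0.24, edgeR adjusted p = 5.27e-04), from 3.61 ± 0.45 to 1.83 ± 0.58 CPM (SD, n = 3 each). Igfbp6, encoding a binding protein that prefers IGF2, was at 4.17 ± 0.53 CPM in WT EBs and 0.586 ± 0.25 CPM in KD EBs (SD, n = 3 each). It fell by 2.88 on the log2 scale (SE 0.29, edgeR adjusted p = 5.65e-10). Igfbpl1, a binding protein-like gene, fell by 1.75 (SE 0.11, edgeR adjusted p = 6.45e-15), from 20.3 ± 1.57 to 6.28 ± 0.57 CPM (SD, n = 3 each).

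Among 13 adaptors and receptor-proximal genes, 12 reached the filter in both EB groups, of which 2 rose and 5 fell. Grb10 and Grb14 encode related adaptors that bind the insulin and IGF1 receptors and dampen their signal. Grb10, which is itself imprinted, stood at 53.8, 55.8 and 49.0 CPM in WT EBs and 19.3, 21.0 and 21.0 CPM in KD EBs and fell by 1.43 on the log2 scale (SE 0.07, edgeR adjusted p = 2.05e-17). Grb14 fell by 1.47 (SE 0.08, edgeR adjusted p = 3.12e-16), from 34.9 ± 1.68 to 13.1 ± 0.21 CPM (SD, n = 3 each). For both genes, every KD EB library lay below every WT EB library.

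Of the other receptor substrates, Irs2 fell in KD EBs and Irs1 was not called. Irs2 went from 149.7 ± 6.22 to 121 ± 5.91 CPM (SD, n = 3 each), by 0.37 on the log2 scale (SE 0.04, edgeR adjusted p = 4.16e-09). Irs1 stood at 22.4 ± 1.64 and 25.9 ± 2.37 CPM (SD, n = 3 each) and was not called (0.15 ± 0.08, edgeR adjusted p = 0.134). Insrr, encoding an insulin receptor-related receptor, was low, at 1.34 ± 0.48 and 0.544 ± 0.38 CPM (SD, n = 3 each). Insrr did not reach the filter in every KD EB library and is not in the count of falls above. Its log2 fold change of -1.36 ± 0.48 passed the test (edgeR adjusted p = 0.0191) but not without WT or KD EB replicate 1 (edgeR adjusted p = 0.116 and 0.0785).

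Of 24 genes of the PI3K, AKT, mTOR and FOXO group that reached the filter in both EB groups, 9 rose and 7 fell in KD. Pik3r1, encoding a regulatory subunit of PI3K, rose by 1.33 ± 0.10 on the log2 scale, from 18.5 ± 2.88 to 48.4 ± 5.32 CPM (SD, n = 3 each, edgeR adjusted p = 7.43e-09). Akt1, encoding a kinase downstream of PI3K, rose by 0.87 ± 0.04 (edgeR adjusted p = 1.07e-14) to 197 ± 6.03 CPM (SD, n = 3). Tsc2, encoding a part of the complex that restrains mTOR, rose by 0.62 ± 0.04 (edgeR adjusted p = 1.23e-13) to 125 ± 3.12 CPM (SD, n = 3). The members that rose thus included both positive and negative regulators of the pathway.

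**Figure D4:**
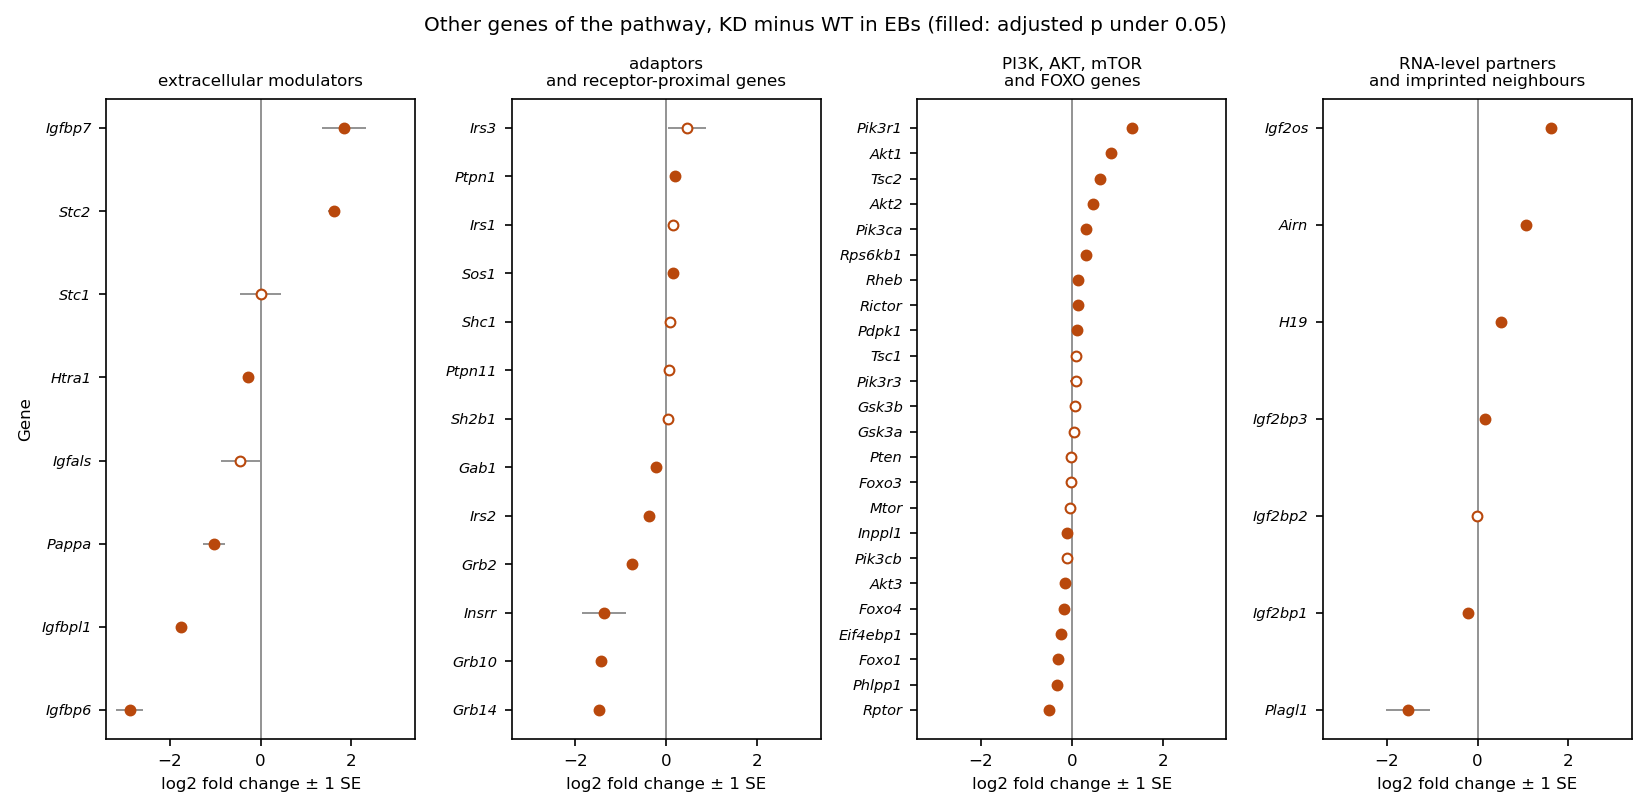
Log2 fold change of KD against WT in EBs for the 52 other pathway genes tested, in 4 panels by role, with horizontal bars of 1 SE on each side. Filled circles passed the test at an adjusted p under 0.05. Among genes with a mean log2 CPM of at least 0, Igfbp6, Igfbpl1, Grb14 and Grb10 lie farthest to the left. On the right, Igf2os, Stc2, Pik3r1 and Airn are at 1.06 or more. Below that level, Plagl1 at -1.53 and Igfbp7 at 1.84 were also called.

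The last group held 7 genes for RNAs and proteins that act on IGF mRNAs or share their imprinted regions. In EBs, 6 of them reached the filter in both groups, of which 4 rose and 1 fell in KD. H19, the maternally expressed non-coding RNA next to Igf2, stood at 1038, 1032 and 1029 CPM in WT EBs and 1444, 1569.6 and 1579 CPM in KD EBs. No libraries overlapped, and its rise of 0.51 ± 0.03 on the log2 scale (edgeR adjusted p = 5.36e-16) stood beside the 0.57 of Igf2. Igf2os, an antisense transcript over the upstream part of Igf2, rose by 1.61 ± 0.05 (edgeR adjusted p = 5.94e-21), from 35.6, 41.4 and 39.6 CPM in WT to 119, 122 and 131 CPM in KD EBs. It shares 98 exonic bases with Igf2, or 1.71% of the exonic length of Igf2, and without strand the reads there cannot be told apart.

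Airn, the RNA made antisense to Igf2r, rose by 1.06 ± 0.08 (edgeR adjusted p = 3.35e-12), from 13.0 ± 0.77 to 28.2 ± 0.89 CPM (SD, n = 3 each). Igf2r and Airn, which come from opposite parental copies where imprinted, thus both rose, by 1.01 and 1.06, and their annotated exons share no base. Reads from introns of Igf2r could still enter Airn exons, or the reverse.

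In ESCs, 3 of the 48 tested pathway genes were called, against 0.603% of all genes tested. H19 fell by 1.81 on the log2 scale (SE 0.27, edgeR adjusted p = 0.0196), from 6.87 ± 1.75 to 1.95 ± 0.17 CPM (SD, n = 3 each). Plagl1, encoding an imprinted zinc finger factor that can bind the Igf2 and H19 region, fell by 1.55 (SE 0.27, edgeR adjusted p = 0.0364), from 6.47 ± 0.97 to 2.19 ± 0.55 CPM (SD, n = 3 each). Pdpk1, encoding a kinase that activates AKT, rose by 0.77 ± 0.14 (edgeR adjusted p = 0.0435), from 13.2 ± 1.99 to 22.4 ± 1.17 CPM (SD, n = 3 each). All 3 calls were lost when WT ESC replicate 1 or any KD ESC library was left out, with adjusted p between 0.0647 and 0.269. Scaling by library size alone also lost them, with edgeR adjusted p of 0.0545 for H19, 0.0922 for Plagl1 and 0.0940 for Pdpk1. Without WT ESC replicate 2 the changes were -1.99, -1.66 and 0.66, with edgeR adjusted p of 2.02e-06, 7.05e-05 and 8.02e-04.

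From ESCs to EBs, 45 pathway genes reached the filter in both stages in WT, of which 33 rose and 10 fell, and 45 did so in KD, of which 31 rose and 8 fell. That was 95.6% called in WT and 86.7% in KD, against 83.9% and 83.7% of all such genes. H19 rose with Igf2, by 7.23 ± 0.13 log2 units in WT and 9.62 ± 0.15 in KD. Irs2 rose by 4.78 ± 0.08 and 4.53 ± 0.08, and Grb10 by 3.45 ± 0.16 and 1.65 ± 0.15. Irs1 had no count in any WT ESC library and 22.4 CPM in WT EBs. Eif4ebp1, encoding a translation repressor that mTOR inactivates, fell from 1341 ± 183 to 108 ± 7.44 CPM in WT (SD, n = 3 each), by 3.63 on the log2 scale (SE 0.10). The edgeR adjusted p of these values was at most 5.97e-08.

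The interaction test called 14 of the 42 pathway genes that reached the filter in all 4 groups, or 33.3%, against 29.6% of all such genes. Of the 14, 8 were higher and 6 were lower. For H19 it was 2.40 ± 0.19 (edgeR adjusted p = 5.86e-07), next to 2.11 for Igf2, so that both had a lower KD level in ESCs and a higher KD level in EBs, although the ESC difference of Igf2 alone was not called. For Grb10 it was -1.80 ± 0.22 and for Akt1 1.34 ± 0.10 (edgeR adjusted p = 3.12e-05 and 4.06e-07).

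Markers of other cell types moved with the EB differences. Of 10 markers of fibroblast-like mesenchyme, a cell type that expresses Igf1 and several binding proteins, 8 rose and 1 fell in KD EBs, and their summed level was 562 to 573 CPM in WT and 1805 to 1863 CPM in KD libraries. The largest part of the rise in this sum came from Col3a1, which went from 9.45 to 721 CPM. Postn rose from 5.52 to 132 CPM, Lum from 0.584 to 34.5 CPM and Twist1 from 28.6 to 171 CPM. Col1a1 stood at 354 and 359 CPM and was not called. Thy1, the 1 that fell, went from 13.9 to 3.45 CPM (edgeR adjusted p = 3.76e-14). Beside the marker counts here and below, 28.0% of all genes tested in EBs were higher and 27.7% were lower. None of the 10 markers was at 0 in EBs.

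The summed level of 10 extraembryonic endoderm markers was 593 to 608 CPM in WT EBs and 929.6 to 964 CPM in KD EBs, with 5 higher and 3 lower. That of 10 pluripotency markers was 358 to 367 and 575 to 601 CPM, with 9 higher. Neuroectoderm markers summed to 80.2 to 83.5 and 117 to 122 CPM, with 4 of 7 tested higher and 1 lower, and those of cardiac muscle fell, from 49.9 to 54.9 CPM to 13.9 to 17.2 CPM, with 5 of 6 lower. Blood and endothelium markers summed to 60.2 to 67.6 and 86.2 to 95.3 CPM (3 of 5 tested higher, 2 lower, with Hbb-bh1 and Hba-x at 0 in WT), and trophoblast markers to 69.6 to 72.6 and 85.8 to 90.4 CPM (1 of 4 tested higher, 2 lower, with Prl3d1 at 0 in both). The part of such differences in cell make-up in the IGF axis results was not tested.

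The genes whose pattern over the 12 libraries was most like that of a ligand were found by Pearson's r of log2 CPM, without a test, since the libraries fall into 2 stages. Of 11852 genes compared with Igf2, the closest were Epb41l3, Herpud2 and Trim35 (r = 0.998 for each), which also averaged more CPM in KD than in WT EBs. Epb41l3 averaged 2.81 and 2.32 CPM in WT and KD ESCs and 87.7 and 102.5 CPM in WT and KD EBs. For Igf1 they were Vim (r = 0.974), which encodes the intermediate filament protein vimentin, Cep162 (r = 0.973) and Slu7 (r = 0.968). Vim averaged 355 and 391 CPM in WT and KD ESCs, 395 CPM in WT EBs and 810.0 CPM in KD EBs. The KD EB group thus stood alone, as for Igf1, a likeness for which Vim was picked.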

How the data were processed

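Per the file headers, the authors deposited raw counts for ESCs and EBs in separate tables and counted paired reads with featureCounts version 2.0.3 on the Ensembl release 90 annotation of GRCm38, requiring both ends mapped and leaving out chimeric pairs, with no strand option. HISAT2 version 2.1.0 and DESeq2 version 1.18.1 are named per the submitters' processing notes. Low counts were mostly even (61.7% to 68.7% of counts from 1 to 10), so each mate appears to have been counted on its own, and exact intervals, which cover counting error only, are too narrow. Of 52636 genes, 52403 were matched to a symbol.

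Counts were analysed as deposited with edgeR version 4.0.16 in R version 4.3.3 (TMM normalisation, filterByExpr at 10 counts and a total of 15, quasi-likelihood F-test with the robust option). KD against WT was fitted within each stage on 6 libraries. Stage differences and the interaction were fitted on all 12. Counts over the 10 genes in EBs, between stages and for the interaction, and over the pathway and its groups outside ESCs, cover genes with every library at or above the filter's level, a restriction chosen after seeing the data. Counts in ESCs, apart from the unadjusted count of the 10 genes, and over marker lists cover all genes tested. The SE was taken as the absolute log2 fold change over the root of F. Adjustment was over all genes tested. Replicates were compared before averaging and no pair held identical values. Replicate numbers are shared between groups, but same-numbered WT and KD libraries did not deviate together (correlations from -0.019 to 0.020 in ESCs and from -0.017 to 0.011 in EBs), so the numbers were not used as pairs. The fits were tested on simulated data. CPM used 1 TMM scale over 12 libraries, so a ratio of CPM means can differ slightly from a within-stage fold change. Alternatives were DESeq2 version 1.42.0, scaling by library size, no filter, a replicate block, a fit of all 12 libraries and leaving out each library.

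The 10 genes, the pathway lists and the marker lists were chosen with earlier results of these data known. All 10 genes are named in each comparison. Of the other pathway genes, the rule named up to 3 called genes per group and comparison with the largest log2 fold change at a mean log2 CPM of at least 0, plus H19, Airn, Igf2os, Irs1, Irs2 and Grb10, and some of the names are given here. Pdpk1, Plagl1 and Eif4ebp1 fall under that rule, while the single markers named were chosen after their values were seen. Pappa falls under the rule for the stage comparisons only and is given in EBs because its product is named there. Promoter windows are the 250 bases before RefSeq starts on GRCm38.p6, printed where at most 30 bases fall in annotated exons, and 9 of the 10 genes had a window.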

Additional observations from a re-analysis of the deposited data

Results flagged for a closer look

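Of the 6 genes that reached the filter in all 4 groups, 5 had a knockdown difference in EBs that departed from that in ESCs. This was the interaction test in edgeR's fit of 12 libraries, which called 29.6% of all such genes. Igf2, Irs4 and Igfbp5 also passed, but they did not reach the filter in every ESC library and are not in that count. The values below are the EB difference minus the ESC difference, on the log2 scale. They were 2.11 for Igf2, 0.80 for Igf2r, 0.56 for Igfbp2, 1.00 for Igfbp4, 2.50 for Igfbp5 and 7.07 for Irs4, which were positive, and -0.36 for Igf1r and -0.49 for Insr, which were negative. The Igf1r value comes with an ESC difference of 0.43 and an EB difference of 0.0015, neither of which was called on its own. The Irs4 value has no counts behind it in KD ESCs, so its size depends on the prior count.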

How the results depend on the processing

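Over 665 values of the 10 genes under alternative settings, 633 kept their direction and their side of the threshold, 19 lost and 5 gained a call, and 8 changed sign, none of them called. The EB knockdown calls of Igf2, Igf2r, Insr, Irs4 and the 4 binding protein genes held under every alternative run, including each left-out library. That of Igf1 is left out, since it had to differ there. In ESCs, where the main analysis called 97 genes, DESeq2 called 1030, library size scaling 36, no filter 1769, the replicate block 266 and the 12-library fit 1999. Leaving out 1 library gave 8 to 1557, the highest without WT ESC replicate 2. Of the 10 genes, leaving out 1 library called 0 to 1 in ESCs, and the 12-library fit called 3, Igf2 with its low KD counts among them. For the interaction, leaving out 1 library called 5 to 9 of the 10, with 5 without KD ESC replicate 3, and 3389 to 5507 of all genes, against 4370 with all libraries. Those called among the 10 include genes with few counts in ESCs. Library size scaling lowered the share of interaction calls over all genes that were positive from 55.6% to 35.3%. The causes were not tested.

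Some uncalled log2 changes changed sign. Leaving out 1 library gave -0.058 to 0.159 for Insr in ESCs (lowest without KD replicate 3), -0.168 to 0.0075 for Igfbp4 in ESCs (highest without WT replicate 2) and -0.036 to 0.031 for Igf1r in EBs (below 0 without WT replicate 2 or 3 or KD replicate 1 or 2). It gave interactions of -1.92 to 6.15 for Airn and -1.39 to 5.46 for Igf2os (lowest without WT ESC replicates 1 and 3, respectively). Library size scaling gave 0.015 for Igfbp4 and 0.058 for Irs2 in ESCs, and no filter gave -0.0018 for Igf1r in EBs. From raw counts in place of counts per kilobase, the Igfbp2 share was 98.4% in WT and 98.3% in KD ESCs and 35.0% in WT and 19.8% in KD EBs. With library size scaling the ligand sums were 713 and 1069 CPM per kilobase in WT and KD EBs. With the replicate number as a block, no call among the 10 genes changed, in EBs or in ESCs.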
